A study of Rattus norvegicus with 30 samples.

Results

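The comparison described here is that of Q74 cells after 5 days of induction with the same cells before induction. Q74 lines are derived from PC12, a rat phaeochromocytoma cell line, in which doxycycline switches on a GFP-tagged exon 1 fragment of huntingtin with 74 glutamines. Its members were chosen by their labels, the 8 arrays of Q74 lines 4 and 6 at day 5 and day 0, out of 30 arrays in all. Every line was sampled on each day by 2 isolations of RNA. The 8 arrays of Q23 lines 1 and 5 at the same days, which carry the same construct with 23 glutamines, and 4 arrays of PC12 cells without a construct serve as background. All of these cells received 1 μg/ml doxycycline after day 0, and none before it, and the construct lines were kept under G418 and hygromycin selection. Each construct is represented by 2 independent lines. The PC12 arrays were taken as isolations of 1 culture, which the labels do not settle.

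Huntingtin exon 1 carries the polyglutamine tract that is expanded in Huntington's disease. Fragments with an expanded tract misfold and gather into aggregates in the cytoplasm and nucleus, while short tracts stay soluble. PC12 cells derive from the adrenal medulla, grow as undifferentiated cells and can take on neuron-like features, and the inducible lines allow the same line to be read before and after the fragment is made.

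Each array measured 22521 probes. The values are on a variance-stabilised log scale, read as natural logs because the highest value in the construct arrays, 11.15, is close to the natural log of the largest scanner signal, 11.09. Differences are given in log2 units or as folds after conversion, which understate the change of dim probes, for which the scale is close to linear. No table used here pairs the probes with genes, so the results are for probes, the induction of the construct could not be read from its own probe, and neither cell type markers nor gene lists were examined. Array medians of the 8 Q74 arrays lay between 4.77 and 4.81. The isolations of Q74 line 4 at day 0 were the least alike of all, with r = 0.9923 over probes and 875 probes that differed by over 1.5-fold between them. In the other 11 combinations of construct line and day r was 0.9946 to 0.9971, and 58 to 423 probes differed by that size. Several results that rest on line 4 are therefore also given with a single day 0 isolation. Others, such as the agreement of the lines by size and by brightness, are not.

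The fit (limma) used 12 line means, of the Q74 and Q23 lines at days 0, 1 and 5, with the line as a block. In the mean of both Q74 lines, 2330 probes differed between day 5 and day 0 at an adjusted p under 0.05 (limma). They are 10.3% of all probes and are referred to as called. Of these, 1381 rose (6.13% of all probes) and 949 fell (4.21%). Most of the changes were small. The median rise was 1.29-fold and the middle 50% of rises lay between 1.23- and 1.38-fold, whereas the median fall was 1.32-fold and the middle 50% of falls lay between 1.24- and 1.51-fold. The smallest change that passed was 1.17-fold. Falls outnumbered rises among the larger changes in this mean of both lines. There were 170 rises and 247 falls above 1.5-fold, 29 rises and 74 falls above 2-fold and 6 rises and 13 falls above 3-fold, and above 4-fold there were 2 of each. Above 2-fold were thus 2.10% of the probes that rose and 7.80% of those that fell.

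The balance of rises and falls depended on the scaling for the small changes. Rises were 59.3% of the calls on the deposited values, 52.9% after quantile normalization (1174 against 1047) and 70.3% with array medians centred (1822 against 768). Centring moved the median change of all probes to 0.03 log2 units, against −0.01 on the deposited values. Above 2-fold falls were in the majority under each scaling, with 23 rises and 76 falls after quantile normalization and 33 rises and 67 falls with centred medians. Above 1.5-fold they were in the majority after quantile normalization (149 rises and 267 falls) and near evenly split with centred medians (219 rises and 221 falls).

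The count rested on the pairing of days within a line. Without the line as a block it was 28, 14 in each direction. Without line 4 it was 950 and without line 6 it was 2942, the lone line being assumed to vary like the Q23 lines. From the Q74 lines alone it was 1498 over 3 days and 989 over days 0 and 5, since the spread then had only the Q74 lines to come from. It was 1164 and 1146 without the first and the second isolations. With a single day 0 isolation of line 4 it was 2182 (the first) and 1824 (the second).

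The probes with the largest change in the line that changed less were taken from each direction, 2 that rose and 2 that fell, with no gene name attached to any of them. This choice was made on the same arrays. It favours like changes in both lines, separation of day 5 from day 0 and small p-values, so the values below are descriptions. ILMN_1349269 had the largest rise. At day 5 its values were 6.52 and 6.71 in line 4 and 7.96 and 8.06 in line 6, against 5.23 and 5.56 in line 4 and 6.21 and 6.51 in line 6 at day 0. All 4 day 5 arrays lay above the day 0 arrays of their own line, although line 6 before induction was already near the level that line 4 reached at day 5. The rise was 4.19-fold (log2 difference 2.07, SE 0.11, adjusted p = 3e-09). It was 1.75 log2 units in line 4 and 2.38 in line 6, while Q23 lines 1 and 5 changed by 0.18 and 0.24 and PC12 by −0.08. The SE and p of each named probe rest on a spread pooled from Q74 and Q23 lines and moderated over all probes. With the Q74 lines alone at days 0 and 5, the adjusted p of this rise was 2.8e-05 (limma).

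ILMN_1374039 rose by nearly the same amount in both lines, which the choice of the named probes favours. Its values were 7.65 and 7.58 in line 4 and 8.14 and 8.24 in line 6 at day 5, and 6.36 and 6.48 in line 4 and 6.89 and 7.22 in line 6 at day 0. No day 5 array overlapped a day 0 array of either line. The log2 difference was 1.68 (SE 0.07, adjusted p = 6.3e-10), with 1.73 in line 4 and 1.63 in line 6, against 0.11 and −0.09 in Q23 lines 1 and 5 and 0.05 in PC12.

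ILMN_1374582 had the largest fall, 5.21-fold. Its values at day 5 were 5.17 and 5.14 in line 4 and 5.23 and 5.26 in line 6, against 7.06 and 6.78 in line 4 and 6.75 and 6.81 in line 6 at day 0. The 4 arrays of day 5 lay within a narrow range far below the 4 of day 0, a separation that the choice of the probe favours. The log2 difference was −2.38 (SE 0.09, adjusted p = 2.5e-10). This probe was also lower at day 5 in Q23, with log2 differences of −0.72 in line 1 and −0.46 in line 5, and the Q74 change minus the Q23 change was −1.79 (SE 0.13, adjusted p = 1.3e-06). In PC12 it changed by −0.15.

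ILMN_1364840 fell by 3.51-fold. Its values were 6.37 and 5.97 in line 4 and 6.30 and 6.20 in line 6 at day 5, against 7.76 and 6.93 in line 4 and 7.78 and 7.39 in line 6 at day 0. Again no array of day 5 overlapped one of day 0. The first isolation was the higher of the pair in every construct line at day 0 and at day 5. The log2 difference was −1.81 (SE 0.08, adjusted p = 6.3e-10), against −0.06 and −0.33 in Q23 lines 1 and 5 and −0.05 in PC12. Without the line as a block this probe kept its call (adjusted p = 0.0022), whereas ILMN_1349269, ILMN_1374039 and ILMN_1374582 had adjusted p = 0.30, 0.13 and 0.18.

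**Figure D1:**
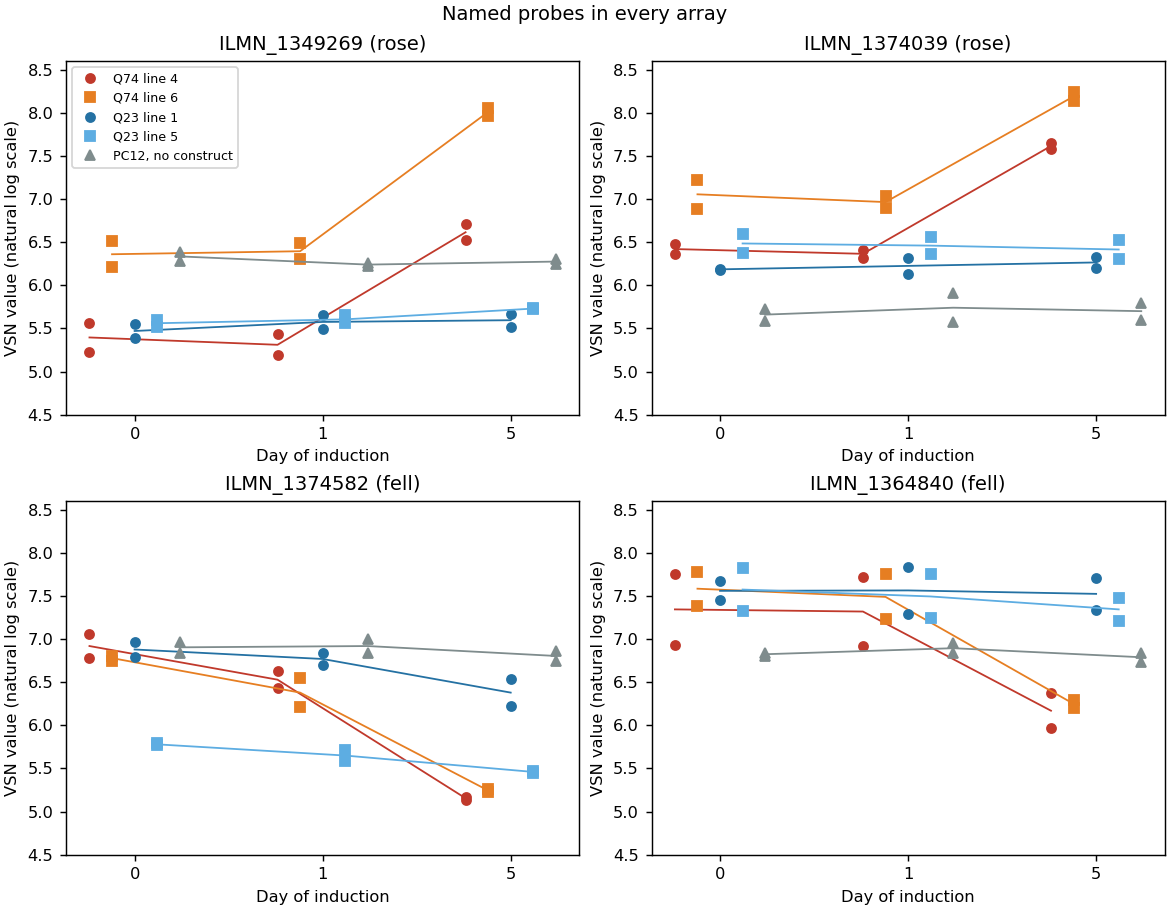
Values of the 4 named probes in every array (natural log scale) on days 0, 1 and 5, with points for RNA isolations and lines joining the means of each cell line. The Q74 lines stand apart from their own day 0 values only at day 5 in 3 of the panels, while ILMN_1374582 had log2 differences of −0.56 and −0.58 at day 1 in lines 4 and 6.

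Among the called probes the differences from day 0 were smaller at day 1 than at day 5. For the probes that rose by day 5, the median difference from day 0 in line 4 was 0.08 log2 units at day 1 and 0.46 at day 5, and in line 6 it was 0.02 at day 1 and 0.28 at day 5. For those that fell, taken in the direction of the fall, it was 0.08 at day 1 and 0.50 at day 5 in line 4, and 0.07 at day 1 and 0.32 at day 5 in line 6. The probes were chosen on day 5 minus day 0, which favours larger values at day 5. Day 1 and day 5 also share the day 0 arrays, so these values are only set side by side.

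The size of the change differed between the lines. By over 2-fold, 79 probes were higher and 143 lower at day 5 in line 4, and 23 were higher and 46 lower in line 6. By over 1.5-fold, 426 were higher and 418 lower in line 4, and 105 higher and 149 lower in line 6. Neither Q23 line nor PC12 had any probe past 2-fold. Over all probes the SD of the change was 0.26 log2 units in line 4, 0.18 in line 6, 0.11 in each Q23 line and 0.11 in PC12. The largest differences in line 4 were 5.93-fold upwards and 8.82-fold downwards, those in line 6 5.21-fold upwards and 4.63-fold downwards. With the first isolation alone as its day 0, line 4 had 146 higher and 183 lower probes past 2-fold, and with the second alone 73 higher and 135 lower, so that its counts exceeded those of line 6 with either. Past 1.5-fold, line 4 had 923 higher and 596 lower with the first, and 346 higher and 459 lower with the second.

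**Figure D2:**
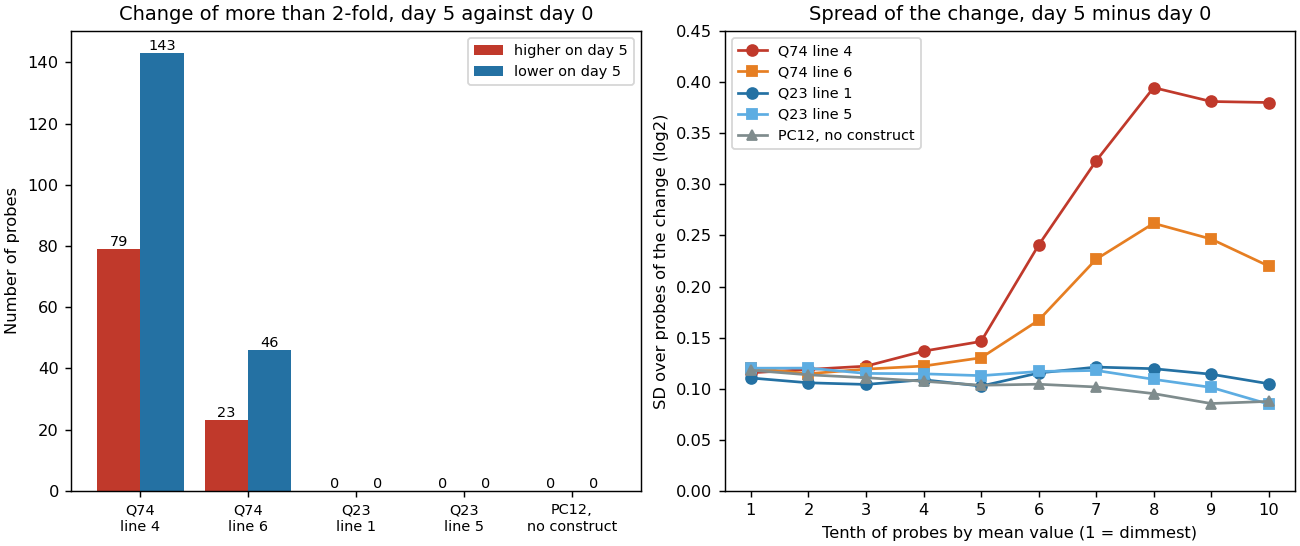
Left, number of probes that changed by over 2-fold between day 5 and day 0 in each cell line. Right, SD over probes of the change (log2) in 10 equal groups of probes by mean value, which reached 0.39 in Q74 line 4 and 0.26 in Q74 line 6 in the 8th group and stayed near 0.1 in Q23 and PC12.

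The lines agreed in direction far more than in size. Of the called probes, 1378 of 1381 that rose did so in both lines and 945 of 949 that fell did so in both, which the choice of probes on the mean of the lines favours. The change was larger in line 4 for 77.2% of the called probes, 1076 of those that rose and 723 of those that fell, and the median ratio of line 6 to line 4 was 0.62, with the middle 50% between 0.40 and 0.96. Using only the second isolation of line 4 at day 0 the share larger in line 4 was 64.5%, and using only the first it was 77.8%. Over all 22521 probes, without any choice, the changes of the lines had a Pearson r of 0.55 and a Spearman rho of 0.37, the slope of line 6 on line 4 was 0.38, and 60.5% of probes moved the same way. In Q23 the corresponding r between lines 1 and 5 was 0.03, with 50.3% of probes moving the same way. Probes on an array are not independent of each other, so these are descriptions. With either single isolation of line 4 at day 0 the r between the Q74 lines was 0.49. The slope was then 0.28 with the first and 0.34 with the second.

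Sign agreement grew with size. Among the 12981 probes that changed by less than 1.1-fold in line 4, 53.3% moved the same way in line 6. The share was 61.6% between 1.1- and 1.2-fold, 80.1% between 1.2- and 1.5-fold and 92.0% between 1.5- and 2-fold. It was 183 of 197 between 2- and 4-fold, and all 25 probes past 4-fold in line 4 moved the same way in line 6, by a median of 1.12 log2 units against 2.15 in line 4. Both lines were over 2-fold higher at day 5 at 12 probes and over 2-fold lower at 31. At 0 probes did they pass 2-fold in opposite directions, and at 2 probes they passed 1.5-fold in opposite directions.

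**Figure D3:**
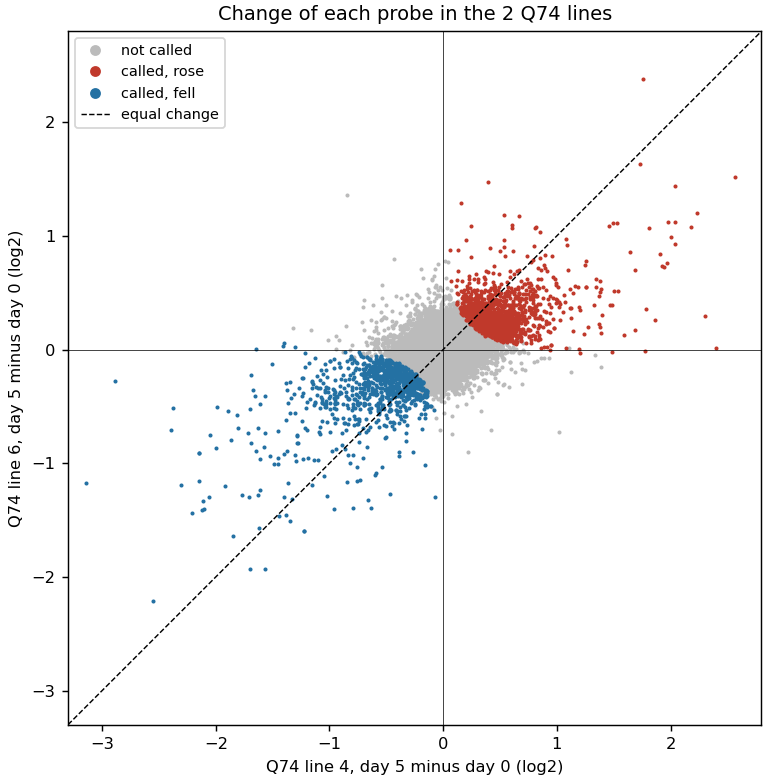
Change of each of the 22521 probes between day 5 and day 0 (log2) in Q74 line 4 (horizontal) and Q74 line 6 (vertical), with the called probes coloured by direction and a dashed line of equal change. Called probes lie almost wholly in the quadrants where both lines moved the same way, and 77.2% of them changed more in line 4.

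Each line can also be read on probes that the other chose. Within a line only RNA isolations are replicated, so a test there (limma, 24 arrays) measures the spread between isolations and not between lines. It called 1454 probes in line 4 (831 rose and 623 fell, 6.46% of all probes) and 272 in line 6 (155 rose and 117 fell, 1.21%). With the isolation number as a block the line 6 count was 442 (235 rose and 207 fell), and from the 8 Q74 arrays alone it was 162 (77 rose and 85 fell). Of the 831 that rose in line 4, 769 were also higher at day 5 in line 6, and the median difference of the 831 was 0.24 log2 units in line 6 against 0.58 in line 4. Of the 623 that fell in line 4, 536 were also lower in line 6, and in the direction of the fall the median of the 623 was 0.24 in line 6 against 0.65 in line 4. The 272 chosen in line 6 were read in line 4 at nearly the size they had in line 6. Those that rose had a median of 0.54 in line 4 against 0.60 in line 6, with 143 of 155 in the same direction, and those that fell 0.82 in line 4 against 0.78 in line 6, with 115 of 117. On the 831 and 623 probes of line 4, the Q23 lines moved along the same direction by medians of 0.00 and 0.02 for those that rose and 0.01 and 0.00 for those that fell. On the 155 and 117 probes of line 6 these medians were 0.04 and 0.06 for those that rose and 0.04 and 0.04 for those that fell, with 70.3% and 69.2% moving the same way in Q23 line 5 and 63.2% and 54.7% in Q23 line 1. The line 4 count was 763 (350 rose and 413 fell) without the first of its day 0 isolations, where falls were in the majority, and 1993 (1240 rose and 753 fell) without the second.

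Probes were also chosen on 1 isolation of 1 line, by a change of over 1.5-fold, and read in arrays that had no part in the choice. The 754 probes chosen on the second isolation of line 4 had a median change of 0.79 log2 units in its first isolation and of 0.35 and 0.36 in the isolations of line 6. The 1421 chosen on the first isolation of line 4 had 0.46 in its second isolation and 0.26 and 0.21 in line 6. The 329 and 291 probes chosen on the first and second isolations of line 6 had 0.67 and 0.73 in the other isolation of line 6, and between 0.66 and 0.73 in the isolations of line 4. The same choice in the Q23 lines gave between 18 and 273 probes, whose median change in the other isolation of the same line was between −0.20 and 0.06. In the isolations of the other Q23 line their medians lay between −0.08 and 0.22. The highest were 0.22 and 0.21, for the 22 probes chosen on the second isolation of line 1. These are near the lower of the medians, 0.26 and 0.21, that the 1421 probes above had in line 6. The isolations of Q74 line 4 correlated over all probes with r = 0.60 in their change and those of line 6 with r = 0.51, against −0.30 and 0.00 in Q23 lines 1 and 5 and 0.07 in PC12.

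**Figure D4:**
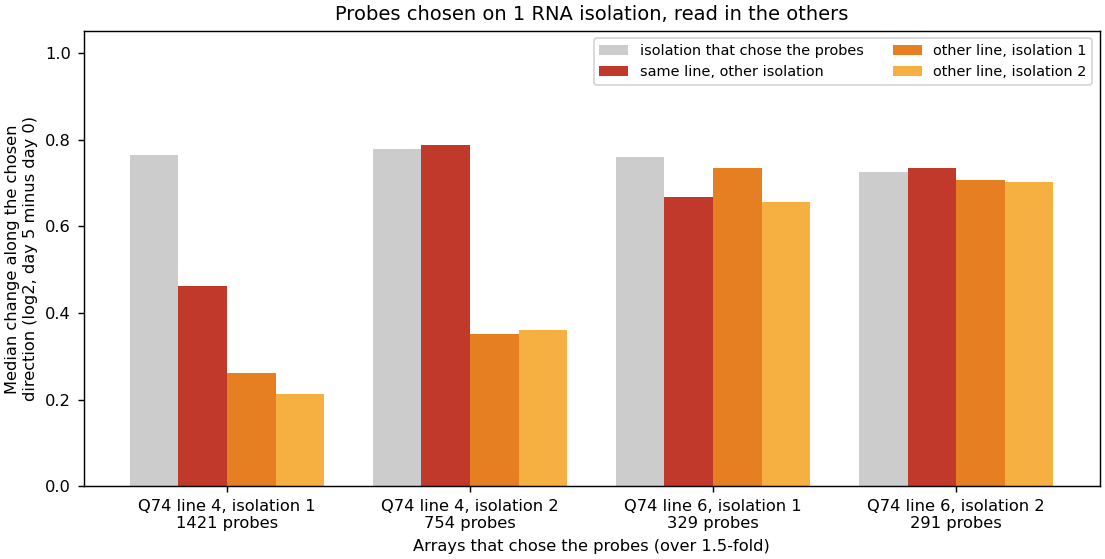
Median change (log2, day 5 minus day 0, along the chosen direction) of probes chosen on 1 RNA isolation of a Q74 line, in the isolation that chose them and in the 3 others. Probes chosen in line 6 kept their size in line 4, whereas those chosen in line 4 were between 0.21 and 0.36 in line 6.

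Few probes could be shown to differ between the lines. The test of the line 4 change against the line 6 change called 91 probes (0.404% of all probes, again on the spread between isolations), with a median difference of 1.08 log2 units. At 53 of them both lines moved the same way and line 4 more, at 3 the same way and line 6 more, and at 35 the lines moved in opposite directions. In 12 of these 35 both lines passed 1.2-fold. At the probe with the largest difference the log2 difference was −2.89 in line 4 and −0.28 in line 6. The change was higher in line 4 at 41 probes and lower at 50, and this balance turned to 27 higher and 19 lower (46 in all) without the first day 0 isolation of line 4 and was 101 higher and 98 lower (199) without the second. The count was 198 with the isolation number as a block and 28 from the 8 Q74 arrays alone.

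The probes that changed were bright ones. Ranked by their mean over the construct arrays, 95.4% of the probes that rose and 96.3% of those that fell lay in the brighter 11260 of the 22521 probes, and 0.879% of the dimmer probes were called against 19.8% of the brighter ones. In the 10 equal groups by brightness the called share was 0.355% in the dimmest, 1.82% in the 5th, 6.66% in the 6th, 26.8% in the 8th and 22.2% in the brightest. Among called probes the median size hardly varied over the brighter groups, from 0.37 to 0.39 log2 units in the 6th to the 10th. Calling on p sets a lower bound to these sizes. Over all probes the median absolute change was 0.09 log2 units in the 6th group, 0.16 in the 8th and 0.13 in the 10th. Ranking the probes on the Q23 arrays alone, which had no part in the Q74 values, gave 93.8% and 96.0%. Most probes that rose lay above the median of all values already at day 0, which the scarcity of calls among dim probes favours. The probes that rose had a median value of 6.93 at day 5 and 6.64 at day 0, and those that fell 6.46 at day 5 and 6.83 at day 0, all above the overall median of 4.79. Of the 949 that fell, 70 ended below that median at day 5 and 27 lay below it at day 0, and of the 1381 that rose, 29 lay below it at day 5 and 91 at day 0.

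The likeness of the lines followed brightness as well. The r between the changes of lines 4 and 6 was 0.07 in the dimmest group, 0.20 in the 5th, 0.46 in the 6th and 0.72 in the brightest, and the share of probes moving the same way was 52.7% in the dimmest and 71.5% in the brightest. The SD of the change in line 4 was 0.12 log2 units in the dimmest group and 0.38 in the brightest, whereas the SD between isolations was 0.12 and 0.17. The part that the compression of dim values by the scale has in this was not tested.

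**Figure D5:**
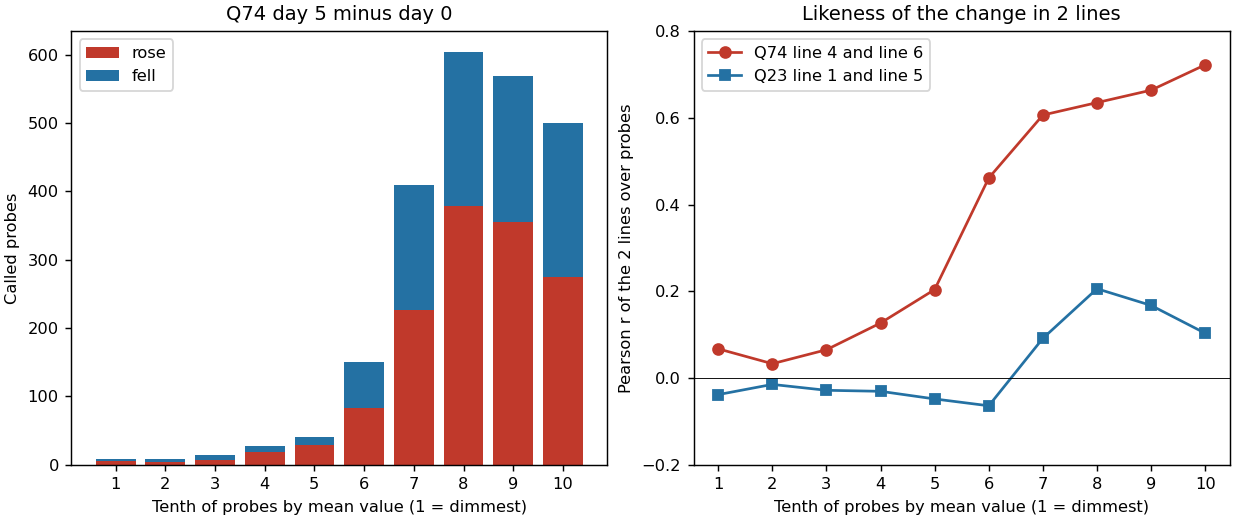
Left, number of called probes (Q74 day 5 minus day 0) in 10 equal groups of probes by mean value, 1 being the dimmest. Right, Pearson r over the probes of each group between the changes of Q74 lines 4 and 6, which reached 0.72, and of Q23 lines 1 and 5, which was at most 0.21.

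The cells without the expanded tract changed little at the same probes. In Q23, 0 probes passed an adjusted p under 0.05 (limma), with 824 at an unadjusted p under 0.05, a variance trend with a robust prior called 1, and 7 were called without either Q74 line. Along the direction of the Q74 call, the probes that rose had moved by a median of 0.01 log2 units in Q23 line 1 and 0.04 in line 5, and those that fell by 0.02 in each line. Of the probes that rose in Q74, 65.5% were also higher at day 5 in Q23 line 5 and 55.1% in line 1, and of those that fell 59.5% were lower in line 5 and 55.9% in line 1. Of all the brighter probes, 51.6% were higher at day 5 in Q23 line 5 and 49.5% in line 1. The Q74 change itself differed from the Q23 change at 684 probes (3.04% of all probes), 344 with the higher change in Q74 and 340 with the lower. The balance turned with the scaling, with 272 higher and 360 lower after quantile normalization and 406 higher and 283 lower with array medians centred, and with a minimum of 1.5-fold it was 140 higher and 216 lower. The count was 0 without the line as a block, 63 and 50 without Q23 lines 1 and 5, 349 and 2059 without Q74 lines 4 and 6, 338 and 267 without the first and the second isolations and 243 without the second day 0 isolation of Q74 line 4. In PC12 without a construct, 26.7% of the probes that rose in Q74 were higher at day 5, against 32.4% of all the brighter probes, and 70.7% of those that fell in Q74 were lower, against 67.6% of all the brighter probes. Most of all the brighter probes were thus also lower at day 5 in PC12. Whether the called probes differed from them was not tested.

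Counting arrays instead of fitting them gave a similar contrast. At 3476 probes (15.4% of all) both isolations of day 5 lay beyond both of day 0 in the same direction in both Q74 lines, 1823 above and 1653 below. At 986 they did so in opposite directions. In the Q23 lines there were 845 probes (3.75%) in the same direction, 374 above and 471 below, against 926 in opposite directions. Of the 2330 called probes, 1774 (76.1%) were among those without overlap in both Q74 lines, which their choice on the same arrays favours.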

How the data were processed

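Rat PC12 lines were measured on 30 Illumina RatRef-12 arrays. Bead averages were taken by the authors in BeadStudio, with no background correction, and normalised with VSN, and the deposited values were read as natural log (ln) values, since neither the base nor whether all arrays were normalised jointly is given in the sources used here. On the VSN scale dim values run nearly linearly and bright ones logarithmically. Differences were converted to log2 units.

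Both RNA isolations per line and day entered as their mean. In R 4.3.3 with limma 3.58.1, 12 means of the 4 construct lines were fitted with the line as a block (4 residual degrees of freedom), since days come from the same line, with Benjamini-Hochberg adjustment over 22521 probes and two-sided tests. Changes within a line, and the difference between lines, were fitted on 24 arrays (12 residual degrees of freedom), where p-values measure only the spread between isolations. PC12 arrays were not fitted. The fits were tested on simulated data. Precision is limited by how few arrays and lines there are.

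The members, lists and tests were chosen with earlier results of these data known. Named probes were the called ones with the same direction in both lines and the largest change in the line that changed less. Gene lists and cell type markers were not examined, because no table pairs probes with genes. Alternatives were the block, the samples fitted, the isolations, 2 other scalings, a brightness filter, a variance trend, a minimum fold and leaving out each line or isolation. The isolation number as a block, leaving out isolations of Q74 line 4 at day 0, and the scalings with a minimum fold were chosen after seeing the data. Chips and dates are not given in the labels, and no batch was tested other than the isolation number. Figures were drawn with Python 3.11.15 and matplotlib 3.10.9.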

Additional observations from a re-analysis of the deposited data

Results flagged for a closer look

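The change over 5 days differed between Q74 and Q23 lines at 684 probes at an adjusted p under 0.05 in limma, 344 higher and 340 lower in Q74. The balance turned with the scaling (272 higher and 360 lower after quantile normalization, 406 and 283 with array medians centred) and was 140 higher and 216 lower with a minimum of 1.5-fold. The count was 0 without the line as a block, 50 and 63 without Q23 lines 5 and 1, and 349 and 2059 without Q74 lines 4 and 6.

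The change differed between Q74 lines 4 and 6 at 91 probes by the test of the difference on the spread between isolations, 41 with the higher and 50 with the lower change in line 4. Without the first day 0 isolation of line 4 these were 27 and 19, and without the second 101 and 98. The cause was not tested.

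The median of the second isolation of Q23 line 5 at day 0, 4.80, lay apart from those of the other 3 Q23 arrays of that day. It was the only one found in 36 groups of 4 arrays, and chance flags about 1 in 20.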

How the results depend on the processing

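The named probes kept their direction under every alternative, which their choice by a large change in both lines favours. Without the line as a block (no pairing of days) 28 probes were called for Q74 and 0 for the difference from Q23, and ILMN_1349269, ILMN_1374039 and ILMN_1374582 lost their call; that of ILMN_1364840 stayed. Fits of the Q74 lines alone called 1498 probes over 3 days and 989 over days 0 and 5. With a minimum of 1.5-fold the counts were 417 for Q74, 356 for the difference from Q23, 765 for line 4 and 177 for line 6. Leaving out lines or isolations gave 950 to 2942 for Q74, 50 to 2059 for the difference from Q23, 0 to 7 for Q23, 763 to 1993 for line 4 and 46 to 199 for the line difference. The 8 Q74 arrays alone called 162 in line 6 and 28 for the line difference, and the isolation number as a block 442 and 198. A variance trend with a robust prior called 1 in Q23. The r between lines was 0.59 without the dimmest 25% of probes (63.5% in the same direction). From single isolations it was 0.43 for both first, 0.45 for both second, 0.38 for line 4 first with line 6 second and 0.44 for the reverse (57.6%, 59.7%, 57.9% and 57.4% in the same direction). Without either day 0 isolation of line 4 it was 0.49 (58.7% and 59.4%). By Q23 brightness 93.8% of risen probes lay in the brighter part. The isolation number had a shared component, with a median r of 0.18 between the first-isolation deviations of construct lines and days (55 of 66 pairs above 0). The causes were not tested. Differences of dim probes, near background, are compressed by the scale, which limits what can be said of them.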
